A study of Sus scrofa with 6 samples.

Results

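The anaphase-promoting complex (APC/C) and the enzymes that work with it were followed at the mRNA level in IPEC-J2 cells, a non-transformed line of jejunal epithelial cells from newborn pigs, after treatment with chenodeoxycholic acid (CDCA), a primary bile acid. The 10 genes were chosen by name from the 31908 gene IDs of the deposited table: the activators CDC20 and FZR1, the ubiquitin-conjugating enzymes UBE2C and UBE2S, PTTG1 (securin), and the core subunits ANAPC1, ANAPC5, CDC16, CDC23 and CDC27. The deposited names matched 9 of them, and PTTG1 was matched by its description, since its name was blank. The CON group was given PBS and the CDCA group 50 μM CDCA, both for 24 h, with 3 libraries in each group. The study calls the libraries of a group biological replicates, without saying whether each came from a culture of its own, and the p-values measure the spread between these libraries.

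The APC/C is a large ubiquitin ligase that marks proteins for destruction by the proteasome and so drives cells out of mitosis. CDC20 activates it at the metaphase to anaphase transition, where the destruction of securin and of B-type cyclins releases separase and ends the activity of CDK1. FZR1, whose protein is also called Cdh1 and is unrelated to the E-cadherin gene CDH1, takes over late in mitosis and keeps the complex active through G1. UBE2C places the first ubiquitins on a substrate and UBE2S lengthens the chain. The mRNAs of CDC20, UBE2C and securin are known to be made mainly in G2 and mitosis of dividing cells, whereas most core subunits are made throughout the cycle.

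The values were TPM, a relative abundance scaled to transcript length, summed over the listed transcripts of a gene. The study states how many clean reads its libraries held, but TPM keeps no count of the reads behind a gene's value, so no counting error is given. Listed TPM summed to between 351770 and 366073 per library. The mRNAs encoded by mitochondrial DNA held between 13.8% and 15.0% of this sum in CON and between 2.90% and 3.45% in CDCA, so results were also computed with totals that left them out, and that alternative is given below where it changed the call of a named gene. The epithelial markers KRT8, KRT18 and EPCAM were abundant. The listed epithelial markers summed to 410 to 422 TPM in CON and 417.5 to 459 TPM in CDCA. E-cadherin (CDH1), however, averaged 0.397 TPM in CON and 0.533 TPM in CDCA, and villin (VIL1) 0.357 and 0.137 TPM. KRT19 was looked for, but no gene ID carried that symbol in the naming used here. The 6 fibroblast markers summed to at most 1.87 TPM, the 4 leukocyte markers to at most 2.54 TPM and the 3 endothelial markers to at most 2.69 TPM in any library.

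Of the 10 genes, 6 fell with CDCA, none rose, and 4 did not pass the test. CDC20, UBE2S, UBE2C, ANAPC5, CDC23 and CDC16 fell, in order of the size of the log2 fold change, and PTTG1, ANAPC1, FZR1 and CDC27 did not pass. The test was limma on log2(TPM + 1) over the 8708 genes that averaged 1 TPM or more, and a gene passed it where the false discovery rate (FDR) was under 0.05. All 10 genes had the mean needed. A passed test was common in these data, at 53.2% of all tested genes, 23.9% lower in CDCA and 29.3% higher. This split depended on the scaling: 2085 genes were lower and 2550 higher as deposited, 2345 and 2297 with libraries scaled to the same median ratio, and 2781 and 1750 with mtDNA-encoded genes left out of the totals, where 8 of the 10 genes fell, FZR1 and ANAPC1 being the added ones. With the further limit of a log2 fold change over 1 in size, which 3.9% of all tested genes met as lower and 3.51% as higher, 1 of the 10 genes was called lower, CDC20. The median log2 fold change of the 10 genes was -0.55, against 0.05 over all tested genes. The CDCA libraries lay below every CON library for 7 of the 10 genes and above for none, where 27.8% of all tested genes lay below and 33.7% above. In RNA from a whole culture, fewer cells in a phase of the cycle and less mRNA per cell cannot be told apart.

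**Figure D1:**
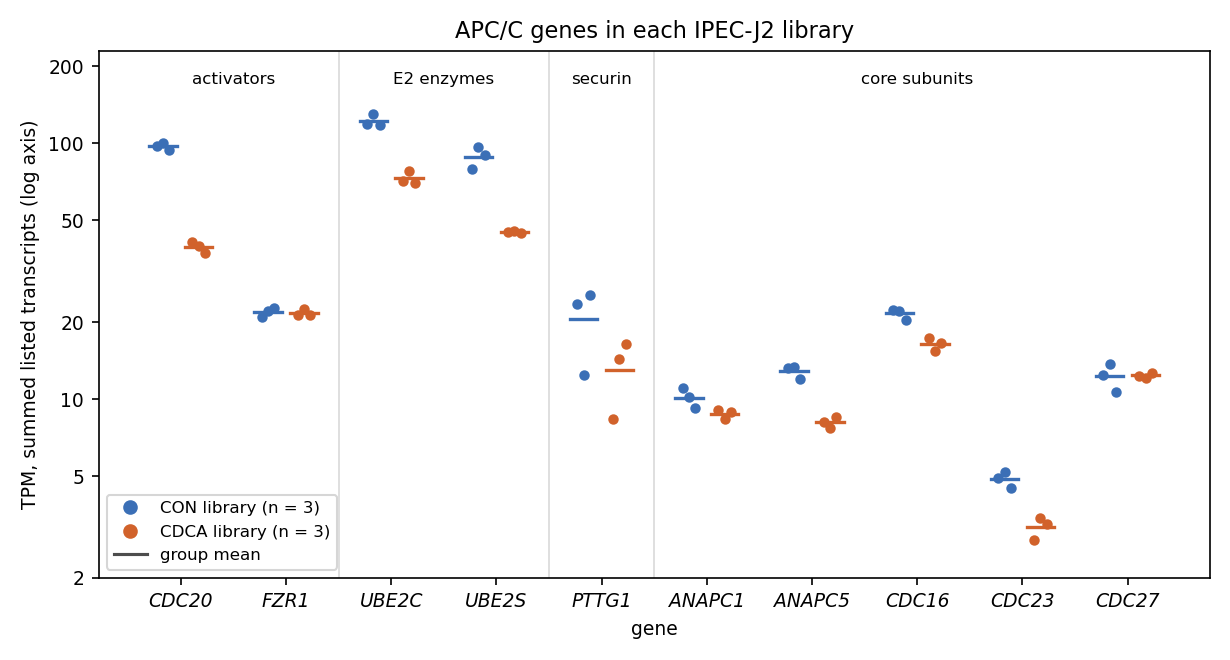
TPM of the 10 genes on a log axis, with a point for each of 3 CON and 3 CDCA libraries and a line at each group mean. CDC20, UBE2C and UBE2S are the most abundant and lie well below the CON libraries in CDCA, while the FZR1 and CDC27 points of the groups overlap.

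CDC20, the mitotic activator, fell and FZR1, the G1 activator, did not pass the test. CDC20 measured 97.7, 100.1 and 93.9 TPM in the PBS libraries against 41.0, 39.55 and 37.3 TPM after CDCA. Every CDCA library was therefore far below every CON library, and the spread within a group was small. The mean fell from 97.2 ± 3.1 to 39.3 ± 1.8 TPM (SD, n = 3 in each group), a ratio of 0.404 (log2 fold change -1.29, SE 0.05, limma FDR 6.9e-06). Of the 8708 tested genes, 211 had a lower log2 fold change than CDC20. Nearly the whole signal came from 1 of its 2 listed transcripts, which held 99.5% of the CDC20 TPM in CON and 98.1% in CDCA.

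FZR1 measured 20.9, 22.0 and 22.6 TPM in the PBS libraries against 21.3, 22.5 and 21.4 TPM after CDCA. The groups overlapped and their means were close, at 21.9 ± 0.86 TPM (SD, n = 3) and 21.7 ± 0.69 TPM (SD, n = 3). The log2 fold change of FZR1 was -0.01, with a 95% confidence interval from -0.13 to 0.12 (limma FDR 0.92), so the data leave room for a change of that size in either direction. Leaving the mtDNA-encoded genes out of the totals moved the median of all tested genes from 0.05 to -0.08 and put the log2 fold change of FZR1 at -0.15 (limma FDR 0.038). The 3 FZR1 transcripts with a mean of at least 1 TPM had CDCA levels relative to CON of 1.03, 0.957 and 0.945, and none passed the test when each listed transcript was tested by itself.

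A ratio of 2 mRNAs within a library does not depend on how the libraries were scaled. The libraries held 4.67, 4.55 and 4.15 times as much CDC20 as FZR1 mRNA per length in CON, and 1.92, 1.75 and 1.75 times as much in CDCA. The groups did not overlap. The mean ratio of CDC20 to FZR1 went from 4.46 ± 0.27 (SD, n = 3) to 1.81 ± 0.10 (SD, n = 3), a difference of -1.30 on the log2 scale (exact permutation test, two-sided, p = 0.1, and 0.1 after adjustment over 2 ratios). For 3 libraries against 3, 0.1 is the smallest p the test can give.

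Both ubiquitin-conjugating enzymes of the APC/C fell. UBE2C, which starts the chain, was the most abundant of the 10 genes, with 119, 129.8 and 118 TPM in the PBS libraries against 71.3, 78.05 and 70.0 TPM after CDCA. No CDCA library reached the CON range. The fall was from 122 ± 6.6 to 73.1 ± 4.3 TPM (SD, n = 3 each), a ratio of 0.598 (log2 fold change -0.73, SE 0.06, limma FDR 0.00011). UBE2S, which lengthens the chain, measured 79.0, 96.5 and 89.9 TPM in the PBS libraries against 45.0, 45.4 and 44.7 TPM after CDCA. Its CDCA libraries lay close together, with a coefficient of variation of 0.855%, and the CON libraries farther apart. UBE2S fell to a ratio of 0.509 (log2 fold change -0.95, SE 0.07, limma FDR 8.5e-05), and the 95% confidence interval from -1.13 to -0.78 spans the limit for a call. UBE2S passed that limit under 3 alternatives, at -1.10 with mtDNA-encoded genes left out of the totals, -1.004 with libraries scaled to the same median ratio and -1.03 without CON replicate 1, its lowest CON library, and 2 of the 10 genes were then called lower.

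The ratio of UBE2C to UBE2S measured 1.51, 1.34 and 1.31 with PBS against 1.58, 1.72 and 1.57 after CDCA. All 3 CDCA values were above all 3 CON values, by 0.23 on the log2 scale, a small shift next to that of CDC20 to FZR1 (exact permutation test, two-sided, p = 0.1, and 0.1 after adjustment over 2 ratios). A planned ratio of securin to separase, the protease that securin holds back, could not be formed, since the separase gene ESPL1 had listed values of 0.12, 0.02 and 0 TPM with PBS and of 0 in every CDCA library.

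**Figure D2:**
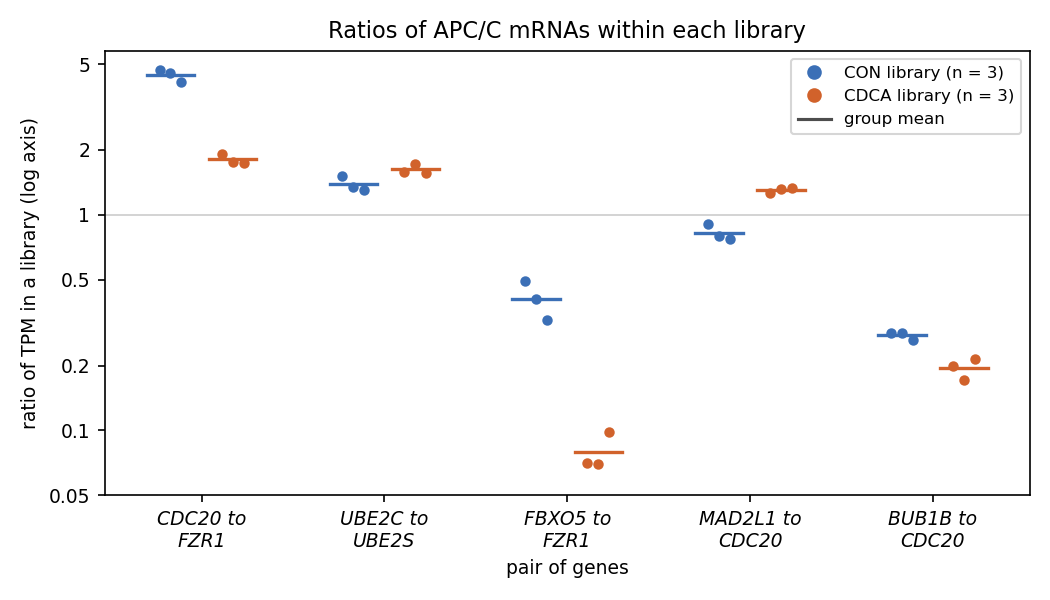
Ratios of TPM of pairs of genes within each library, on a log axis, with a point for each of 3 CON and 3 CDCA libraries and a line at each group mean. CDC20 to FZR1 drops from a mean of 4.46 in CON to 1.81 in CDCA, while UBE2C to UBE2S and MAD2L1 to CDC20 lie higher in CDCA.

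PTTG1 encodes securin, the inhibitor of separase and a substrate of the APC/C with CDC20. It was the most variable of the 10 genes, with 23.55, 12.4 and 25.4 TPM in the PBS libraries against 8.37, 14.3 and 16.4 TPM after CDCA. CON replicate 2 lay inside the CDCA range, so the groups overlapped. The means were 20.5 ± 7.0 TPM for CON and 13.01 ± 4.2 TPM for CDCA (SD, n = 3 each), with a log2 fold change of -0.60 and a 95% confidence interval from -1.37 to 0.17 (limma FDR 0.16). Single libraries moved this value by more than 1.5 times: it was -0.91 without CON replicate 2 (limma FDR 0.035) and -0.34 without CDCA replicate 1 (limma FDR 0.40). PTTG1 had 1 listed transcript.

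**Figure D3:**
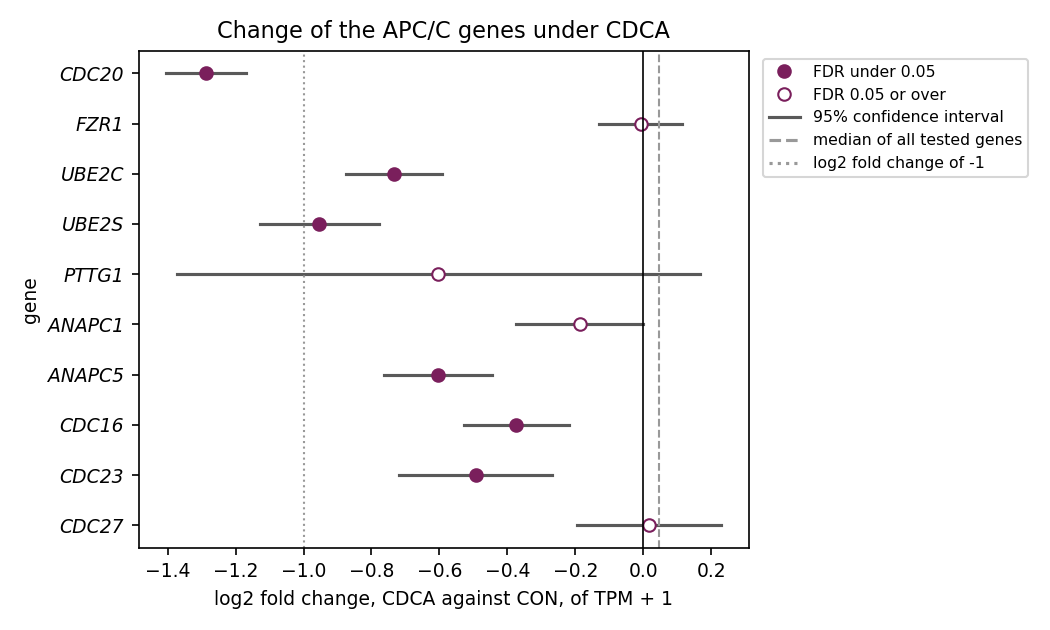
Log2 fold change of TPM + 1 in CDCA against CON for the 10 genes, with 95% confidence intervals from limma (3 libraries per group). Filled points passed at an FDR under 0.05, open points did not, and the intervals of FZR1, CDC27 and PTTG1 cross 0.

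Of the 5 core subunits 3 fell and none was called, where 23.9% of all tested genes fell and 3.9% were called lower. The median log2 fold change of the core subunits was -0.37. Each core subunit had a smaller log2 fold change in size than CDC20, UBE2S and UBE2C, a difference that was not tested. The gap depends in part on the pseudocount, which shrinks changes of less abundant genes more. With 0.1 TPM in place of 1 TPM the order held, but ANAPC5 at -0.66 and CDC23 at -0.61 lay nearer to UBE2C at -0.74. ANAPC5, a subunit of the platform of the complex, measured 13.2, 13.3 and 12.0 TPM in the PBS libraries against 8.10, 7.72 and 8.51 TPM after CDCA. It fell to a ratio of 0.631, the lowest among the core subunits (log2 fold change -0.60, SE 0.07, limma FDR 0.00041). CDC23, a scaffold subunit built of tetratricopeptide repeats, was the least abundant of the 10 genes, with 4.91, 5.18 and 4.47 TPM in the PBS libraries against 2.81, 3.42 and 3.25 TPM after CDCA. The groups were apart, and CDC23 fell to a ratio of 0.651 (log2 fold change -0.49, SE 0.09, limma FDR 0.0047). CDC16, another subunit of that kind, went from 22.4, 22.1 and 20.35 TPM to 17.4, 15.4 and 16.6 TPM, again without overlap. Its ratio was 0.762 (log2 fold change -0.37, SE 0.06, limma FDR 0.0030), and its 2 abundant transcripts, at similar levels, had like ratios of 0.772 and 0.754.

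CDC27, the repeat subunit that holds the tail of the activators, measured 12.5, 13.7 and 10.7 TPM in the PBS libraries against 12.4, 12.1 and 12.6 TPM after CDCA. The groups overlapped, with a log2 fold change of 0.02 and a 95% confidence interval from -0.20 to 0.23 (limma FDR 0.89). The sign of this small difference turned when the mtDNA-encoded genes were left out of the totals, to -0.13 (limma FDR 0.27), and without CON replicate 3, to -0.072 (limma FDR 0.41). Among its transcripts, the third by mean level reached 3.93 TPM in CDCA replicate 1 and at most 0.97 TPM in the other libraries, while the second was lowest in CDCA replicate 1, at 1.69 TPM, so that the sum over transcripts was steadier than its parts.

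ANAPC1, the largest subunit and part of the platform, measured 11.0, 10.2 and 9.21 TPM in the PBS libraries against 9.07, 8.32 and 8.88 TPM after CDCA. The CDCA libraries lay just below the CON libraries, and the difference did not pass the test (log2 fold change -0.19, 95% confidence interval -0.37 to -0.00077, limma FDR 0.084). It did pass without CON replicate 3 (-0.25, limma FDR 0.037), with mtDNA-encoded genes left out of the totals (-0.33, limma FDR 0.014) and with libraries scaled to the same median ratio (-0.23, limma FDR 0.032).

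The ANAPC1 sum covers 2 transcripts whose differences had opposite signs. The transcript with the highest mean measured 6.20, 4.82 and 4.80 TPM in the PBS libraries against 3.64, 2.43 and 2.75 TPM after CDCA, and it fell (log2 fold change -0.68, SE 0.15, limma FDR 0.014 over 12205 listed transcripts tested). The next one measured 3.62, 3.75 and 1.74 TPM in the PBS libraries against 3.88, 4.51 and 4.54 TPM after CDCA, which did not overlap but did not pass (log2 fold change 0.44, SE 0.22, limma FDR 0.17). The share of the ANAPC1 TPM held by the first went from 52.1% to 33.6%, and that of the second from 29.98% to 49.2%. RSEM divides reads that fit several transcripts among them by an estimate, whose error is not part of these values, and the fit by transcript was added after the values were seen.

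**Figure D4:**
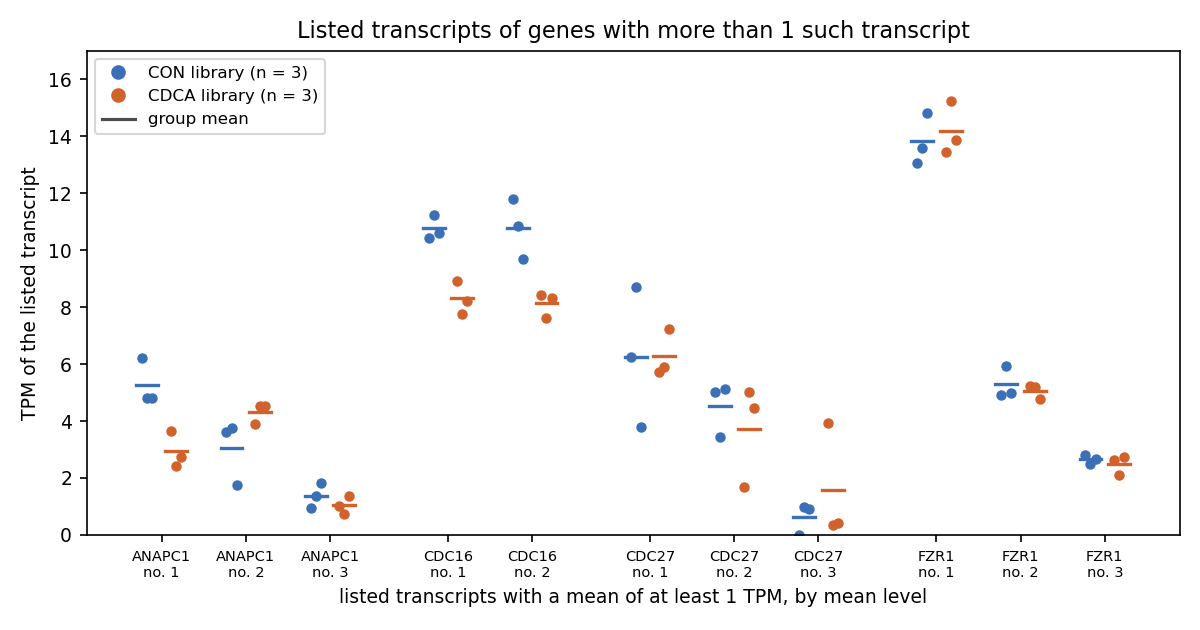
TPM of listed transcripts with a mean of at least 1 TPM, numbered by mean level, for the 4 genes with more than 1 such transcript, with a point for each of 3 CON and 3 CDCA libraries and a line at each group mean. The first ANAPC1 transcript lies lower in CDCA and the second higher, the first 2 CDC16 transcripts both lie lower, and those of FZR1 overlap.

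The order of the mRNA levels, as TPM per gene, differed between the groups near the top and among the core subunits. In CON the order from the highest was UBE2C, CDC20, UBE2S, FZR1, CDC16, PTTG1, ANAPC5, CDC27, ANAPC1 and CDC23. Neighbours overlapped for CDC20 and UBE2S and throughout from FZR1 to ANAPC1, whereas UBE2C stood above CDC20, UBE2S above FZR1 and ANAPC1 above CDC23. In CDCA, UBE2S lay above CDC20 without overlap, by 45.05 to 39.3 TPM in the means, and ANAPC1 lay next to ANAPC5 with overlap at the low end, above CDC23. Over the 8708 tested genes, the mean level of UBE2C was at percentile 94.8, that of CDC20 at 92.5 and that of CDC23 at 34.1.

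The rest of the pathway was described from 4 lists, to be read beside the 23.9% of all tested genes that fell and the 29.3% that rose. Of 9 other APC/C subunits, 6 had the mean needed, and 1 fell, 1 rose and 4 did not pass, with a median log2 fold change of -0.04, which was 0.033 without CON replicate 3. ANAPC11, the RING subunit that brings the conjugating enzyme to the complex, fell from 15.9 ± 0.087 to 11.8 ± 0.30 TPM (SD, n = 3 each, log2 fold change -0.40, limma FDR 0.00061). ANAPC13, a small subunit that steadies the repeat lobe, rose from 1.62 ± 0.67 to 3.34 ± 0.77 TPM (log2 fold change 0.75, limma FDR 0.030), but its FDR was over 0.05 without CON replicate 1 or 3 or CDCA replicate 1 or 2, with no filter on low values and with mtDNA-encoded genes left out of the totals (0.053), with a highest value of 0.090. ANAPC7 did not pass, at 12.8 ± 2.1 and 10.8 ± 1.2 TPM (limma FDR 0.21), but passed with its highest listed transcript (limma FDR 0.018).

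Inhibitors of the APC/C and genes of the spindle checkpoint fell in 8 of 8 tested cases, and 4 were called lower. The checkpoint holds CDC20 back until chromosomes are attached. The median log2 fold change of the list was -1.01. Of all tested genes, 23.9% fell and 3.9% were called lower. The list is not of inhibitors alone, since TRIP13, among the 4 called, takes checkpoint complexes apart. The pass of MAD1L1, a partner of MAD2L1 at unattached chromosomes, held least (log2 fold change -0.46, limma FDR 0.032). It was lost under 7 of the 14 alternatives, namely no filter on low values, the highest listed transcript, the replicate block and leaving out CON replicate 1 or 2 or CDCA replicate 1 or 2, with a highest FDR of 0.19. FBXO5 encodes Emi1, which blocks the complex in S phase and G2. It measured 10.3, 8.94 and 7.35 TPM with PBS against 1.5, 1.57 and 2.1 TPM after CDCA, without overlap (log2 fold change -1.85, SE 0.14, limma FDR 8.6e-05). TTK, the kinase that starts checkpoint signalling, fell from 14.0 ± 2.0 to 3.22 ± 0.33 TPM (log2 fold change -1.82), and BUB1B, which binds CDC20 in the checkpoint complex, from 26.9 ± 1.9 to 7.65 ± 0.74 TPM (log2 fold change -1.69).

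Ratios of an inhibitor to the activator it binds were chosen after the values were seen and are given without a test. None of the 3 pairs overlapped between the groups. Such a gap was common, as 27.8% of all tested genes lay below without overlap and 33.7% above. The share over other ratios was not computed, and each pair holds a gene whose own groups did not overlap. FBXO5 to FZR1 went from 0.408 ± 0.084 to 0.0794 ± 0.016 (SD, n = 3 each) and BUB1B to CDC20 from 0.277 ± 0.012 to 0.195 ± 0.022. MAD2L1, another checkpoint protein that binds CDC20, went the other way, from 0.826 ± 0.073 to 1.30 ± 0.037 of the CDC20 level, while MAD2L1 itself fell (log2 fold change -0.64, limma FDR 0.00052).

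Substrates of the APC/C showed the lowest median. Of 27 genes written down, 23 were tested, 21 fell and none rose, 18 were called lower, and the median log2 fold change was -1.55. Among all tested genes, 23.9% fell and 3.9% were called lower. TK1, a thymidine kinase of S phase, fell from 58.1 ± 0.90 to 9.23 ± 0.61 TPM (log2 fold change -2.53, limma FDR 2.2e-06), RRM2, a ribonucleotide reductase subunit, from 233 ± 12 to 40.9 ± 1.5 TPM (-2.48), and CDCA3, a mitotic entry factor whose symbol has nothing to do with the bile acid, from 42.5 ± 0.96 to 7.81 ± 1.1 TPM (-2.31). Cyclin B1 (CCNB1), picked after its values were seen as the substrate whose loss ends mitosis, fell from 106 ± 6.5 to 36.8 ± 1.1 TPM (a ratio of 0.348, limma FDR 6.3e-06). The 2 tested substrates that did not pass were NEK2 (log2 fold change -0.14, limma FDR 0.52) and ANLN (-0.97, limma FDR 0.056), and the FDR of ANLN was under 0.05 under 5 of the 14 alternatives, among them mtDNA-encoded genes left out of the totals (0.039), with a lowest value of 0.023.

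The other ubiquitin enzymes and deubiquitinases of the cell cycle went both ways: of 11 tested, 1 fell, 6 rose and 4 did not pass. Their median log2 fold change was 0.15. Among all tested genes, 23.9% fell and 29.3% rose. CCNF, an F-box protein with a mitotic role, was the one that fell, from 25.01 ± 2.0 to 10.7 ± 0.78 TPM (log2 fold change -1.15, limma FDR 5.7e-05). SKP1, the adaptor of the SCF ligases, rose from 1.72 ± 0.25 to 4.32 ± 0.19 TPM (log2 fold change 0.97, limma FDR 0.00032), and BTRC, an F-box protein that targets Emi1, from 1.78 ± 0.40 to 4.08 ± 1.6 TPM (0.82, limma FDR 0.033), although the FDR of BTRC was over 0.05 without CON replicate 2 or 3 or CDCA replicate 2 or 3, with the replicate block and with no filter on low values. UBE2D3 and UBE2E1, which can also serve the APC/C, and OTUD7B and FBXW11 were the other genes that rose. OTUD7B, a deubiquitinase, passed narrowly (log2 fold change 0.15, limma FDR 0.048) and lost its pass under 12 of the 14 alternatives, each left-out library and the replicate block among them. With a library left out, 4 to 5 of the 11 rose, and 4 did with the replicate block. Once mtDNA-encoded genes were left out of the totals, 3 of the 11 rose and 2 fell, RBX1, the RING subunit of the SCF ligases, being the second (limma FDR 0.012), as it also was without CDCA replicate 3, and UBE2D3, UBE2E1 and OTUD7B no longer passed. With the highest listed transcript, UBE2E1 and FBXW11 lost their pass.

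**Figure D5:**
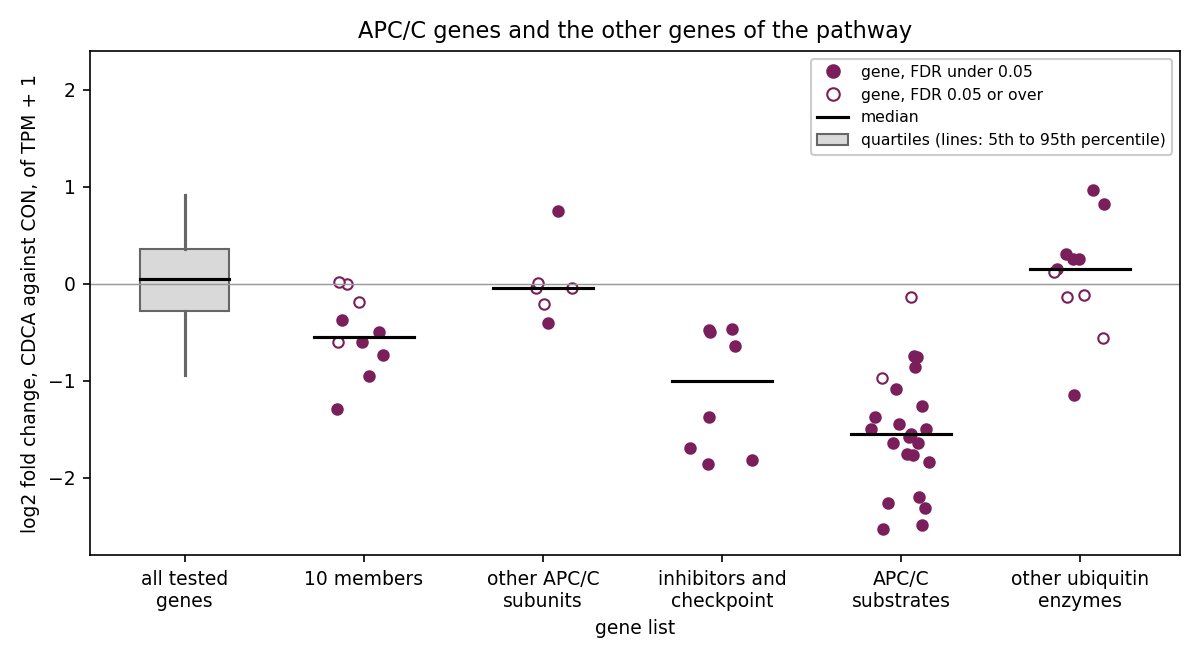
Log2 fold change of TPM + 1 in CDCA against CON for each tested gene of the 10 genes and of 4 lists of pathway genes, with the median of each as a line, beside the quartiles and the 5th to 95th percentiles of all 8708 tested genes. Medians are -0.55 for the 10 genes, -0.04 for other subunits, -1.01 for inhibitors and checkpoint genes, -1.55 for substrates and 0.15 for other ubiquitin enzymes, against 0.05 for all tested genes.

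Patterns nearest to those of the activators were looked up by the root mean square difference of log2(TPM + 1) from the CON mean over the 6 libraries. For CDC20 the nearest tested genes were CRIM1 (0.048), RTN4RL1 (0.055) and TRIP13 (0.062), of which TRIP13 stands in the list of checkpoint genes. TRIP13, the ATPase that takes checkpoint complexes apart, fell from 30.2 ± 1.0 to 11.0 ± 0.49 TPM. For FZR1 the nearest were TMEM115 (0.011), GSK3A (0.016) and COX6B (0.018), all with log2 fold changes between -0.02 and 0.01. A log2 fold change like that of the activator follows from how these genes were picked.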

How the data were processed

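RNA of 3 CON and 3 CDCA libraries was sequenced by the authors, who estimated abundance with RSEM and deposited TPM values with 2 decimals for 63041 transcripts without transcript IDs or counts. The submitters' processing notes name Bowtie 0.12.2 and the mouse build mm10, whereas the gene IDs are pig Ensembl IDs, so no coordinates are given. The annotation release is not given in the sources used here.

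TPM were summed per gene ID. Gene IDs were named from an Ensembl symbol table, then the deposited names, then the NCBI gene numbers in the descriptions (RefSeq, Sscrofa11.1), for 19865 IDs in all. CDCA was compared with CON in R 4.3.3 by limma 3.58.1 (moderated by eBayes, trend included), using log2(TPM + 1) of the 8708 genes that averaged 1 TPM or more, with Benjamini-Hochberg adjustment over all of them. The pseudocount understates changes of low genes. The edgeR test of the study needs counts and was not used. Of these steps, the limma fit was tested on simulated data in which every gene had the same spread. Ratios were compared by exact permutation tests (scipy 1.17.1).

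The 10 genes and the lists were chosen with earlier results of these data known. Named were the 10 genes, the 3 largest changes of each pathway list, ESPL1 and the 3 genes nearest to CDC20 and to FZR1, while further genes complete a count or were picked after their values were seen.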

Additional observations from a re-analysis of the deposited data

How the results depend on the processing

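The 6 genes that fell, CDC20, UBE2C, UBE2S, ANAPC5, CDC16 and CDC23, kept their direction and an FDR under 0.05 under all 14 alternatives. Replicate numbers did not pair the libraries (correlations of same-numbered deviations from -0.092 to -0.035). With the replicate block, the log2 fold change of CDC20 was -1.29 (limma FDR 0.00024) and no call among the 10 genes changed. In the pathway lists, MAD1L1, OTUD7B and BTRC lost their pass with the block and ANLN gained one.

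With mtDNA-encoded genes left out of the totals, FZR1 was at -0.15, ANAPC1 at -0.33 and CDC27 at -0.13, 2 of the 10 genes, CDC20 and UBE2S, were called lower and their median was -0.68. The other medians were -0.16 for other subunits, -1.16 for inhibitors and checkpoint genes, -1.69 for substrates and 0.0080 for other ubiquitin enzymes. Of these enzymes 2 fell and 3 rose, and 0 other subunits rose. With the same median ratio, ANAPC1 was at -0.23, CDC27 at -0.031, and 2 of the 10 genes were called lower. With the highest listed transcript, FZR1 was at 0.034 and ANAPC1 at -0.68, 2 other subunits fell and 3 other ubiquitin enzymes rose. With the listed TPM rescaled to 1000000, FZR1 was at 0.014, and 2 other ubiquitin enzymes fell and 2 were called higher. More genes then had the mean needed, 10947 against 8708, and 481 of them were called lower and 523 higher. A pseudocount of 0.1 TPM gave 505 genes called lower and 509 higher, 1 other subunit and 2 other ubiquitin enzymes among the latter, against 340 and 306 with 1 TPM. With no filter on low values, 0 other subunits rose, the median of inhibitors and checkpoint genes was -0.64, and 2 other ubiquitin enzymes fell. The cause of these differences was not tested.

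With each library left out in turn, FZR1 ranged from -0.036 to 0.017 (above 0 without CON replicate 3 or CDCA replicate 1 or 3), PTTG1 from -0.91 to -0.34, ANAPC1 from -0.25 to -0.13 and CDC27 from -0.072 to 0.092. Of the 10 genes, 1 to 2 were called lower, with medians from -0.57 to -0.42, the latter without CDCA replicate 1. Of other subunits, 0 to 1 rose, with medians from -0.12 to 0.033, and of other ubiquitin enzymes 1 to 2 fell and 0 to 1 were called higher. The planned ratio of PTTG1 to ESPL1 was not run. The deposited TPM hold no reads per gene, so no limit of detection was computed for the genes listed near 0.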

Other observations

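Several genes of the same machinery were listed near 0 in both groups. The APC/C subunit ANAPC16 was listed at 0 in all 6 libraries, ANAPC4 averaged 0.037 TPM in CON and 0.033 TPM in CDCA, and CDC26 averaged 0.207 and 0.163 TPM, while the other subunits of the complex lay between 1.62 and 21.6 TPM in CON. The checkpoint gene BUB3 was at 1.07 TPM in CON replicate 2, 0.09 TPM in CDCA replicate 2 and 0 in the other libraries. The cullin CUL1 averaged 0.387 TPM with PBS and 0.507 TPM after CDCA, and the licensing factor CDC6 0.027 and 0.020 TPM. The listed TPM of a library summed to well under 1000000, so a gene's value covers its listed transcripts. These genes were picked after their values were seen, and none had the mean needed for the test.

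UBE2D2, a conjugating enzyme that can start chains for the APC/C, varied widely within both groups, at 9.23 ± 5.2 TPM for CON and 5.82 ± 3.0 TPM for CDCA (SD, n = 3 each), coefficients of variation of 56.5% and 51.1%, whereas UBE2D1 was at 13.9 ± 0.49 and 15.2 ± 1.3 TPM. Neither passed the test (limma FDR 0.35 and 0.20), but UBE2D1 passed as higher with its highest listed transcript (log2 fold change 0.60, limma FDR 0.0023) and without CDCA replicate 2. Both were picked after their values were seen.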
